A study of Mus musculus with 10 samples.

Results

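The renin-angiotensin system genes considered here are 10 genes taken by name from a table of RNA counts in mouse mammary tumours: Agt, Ace, Agtr1a, Agtr1b, Agtrap, Atp6ap2, Mme, Enpep, Lnpep and Rnpep. All 10 were among the 37882 genes of the table, and 7 of them passed the expression filter that left 14063 genes for testing. The tumours grew orthotopically from MCa-M3C, a mouse breast tumour cell line, in FVB/N hosts. In the TMA-ARB group, 5 tumours of about 100 mm3 received valsartan at 40 mg/kg daily for 6 days, by retro-orbital intravenous injection. The valsartan was given as TMA-ARB, an angiotensin receptor blocker in a form built to be activated in the tumour microenvironment. In the Control group, 5 size-matched tumours received PBS by the same route and schedule. Both groups shared the cell line, the host strain and the handling; groups given free valsartan or a drug-free carrier were not analysed here. All tumours came from 1 cell line, and no label ties a library to its own animal. The p-values therefore reflect differences among the sequenced libraries, which may be technical. Libraries are named by group and by the replicate number of their label, 6 to 10 for TMA-ARB and 1 to 5 for Control.

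The renin-angiotensin system is a chain of peptide cleavages that ends at cell-surface receptors. Angiotensinogen is cut by renin to angiotensin I, angiotensin-converting enzyme trims that to angiotensin II, and aminopeptidases and neprilysin cut the peptides further. Angiotensin II acts mainly through the type 1 receptor, which raises vascular tone and stimulates matrix production by fibroblasts; mice carry a pair of genes for it, Agtr1a and Agtr1b, and valsartan blocks that receptor.

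The library totals ran from 12742953 to 16884621 estimated counts. Mitochondrially encoded genes took a share of the counts that was 10.5% ± 9.12 in TMA-ARB libraries and 4.19% ± 2.21 in Control libraries (SD, n = 5 each; two-sided exact permutation p = 0.143). It lay above 5% in TMA-ARB replicates 8, 9 and 10 and in Control replicates 3 and 4. TMA-ARB replicate 9 reached 24.97%, and without it the difference between the groups was 2.69 percentage points. The 6 luminal epithelial markers summed to 105 to 238 CPM in TMA-ARB libraries and 83.1 to 159 CPM in Control libraries. Krt18 was at 82.3 to 201 CPM in TMA-ARB libraries and 62.0 to 143 CPM in Control libraries, while Elf3 stayed at or below 0.52 CPM. Of the 5 tested, 4 had a log2 fold change above 0, with Krt8 at 1.23, and 1, Cdh1, was below 0 at -0.32. Krt19 and Epcam were highest in TMA-ARB replicate 6, at 51.5 and 12.0 CPM. Levels are in CPM, counts relative to a library size scaled by trimmed means. Fold changes, from the quasi-likelihood test of edgeR, set TMA-ARB over Control. At an adjusted p under 0.05, 0 of 14063 genes were called (percent called 0). At an unadjusted p under 0.05 there were 457 genes, or 3.25%, made up of 233 lower in TMA-ARB (1.66%) and 224 higher (1.59%). That count moved with single libraries. Leaving out a TMA-ARB library gave 1219 genes for replicate 6, 689 for replicate 8 and 224 for replicate 9, and leaving out a Control library gave 302 for replicate 1 and 224 for replicate 2.

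Divided by exon length, the 10 genes spanned from near 0 to over 100 CPM per kb. The most abundant per length was Atp6ap2, which encodes the prorenin receptor and is also an accessory subunit of the proton pump of acidic organelles, at 86.8 ± 18.1 CPM per kb in TMA-ARB libraries and 85.0 ± 15.2 in Control libraries (SD, n = 5 each). Mme, the gene of neprilysin, followed at 37.9 ± 15.6 and 58.6 ± 24.3 CPM per kb in the TMA-ARB and Control libraries. Atp6ap2 was the higher of these neighbours in 9 of 10 libraries. Rnpep averaged 9.91 CPM per kb over all libraries, Agtrap 5.77 and Ace 5.57. Agtrap and Ace could not be ranked beyond their spread, since Agtrap was the higher in 6 of 10 libraries.

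Agt and Lnpep came next at 1.22 and 1.21 CPM per kb over all libraries, with Agt the higher in 5 of 10, so their order was not resolved either. The 3 lowest genes were Agtr1a at 0.163, Enpep at 0.0621 and Agtr1b at 0.0334 CPM per kb. Agtr1a was above Enpep in 4 of 10 libraries although its mean was higher. The lengths were the union of annotated exons; with the longest transcript instead, Lnpep moved ahead of Agt and the other positions stayed. Both receptor genes were thus among the 3 least abundant members.

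**Figure D1:**
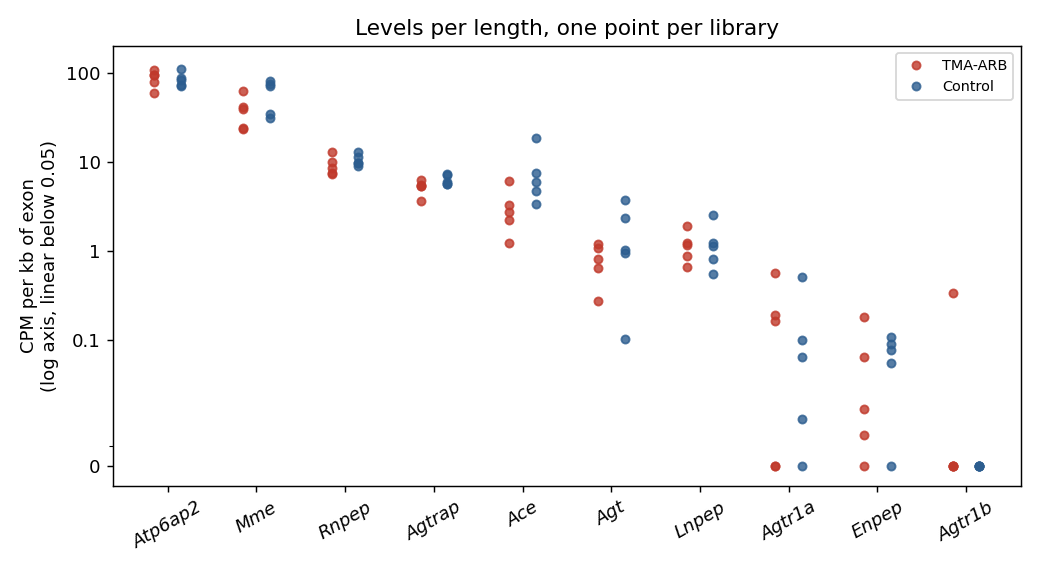
CPM per kb of annotated exon (vertical axis, log scale, linear below 0.05) for each of the 10 genes, with 1 point per library, TMA-ARB in red and Control in blue. Atp6ap2 and Mme lie highest, and Agtr1a, Enpep and Agtr1b reach 0 in some libraries.

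Agt (chromosome 8, 124556534 to 124569706, minus strand, GRCm38) encodes angiotensinogen, the precursor of all angiotensin peptides, which the liver releases into blood and which fat and some stromal cells also make. It was detected in every library at low level. Agt measured 2.05, 0.525, 2.29, 1.23 and 1.55 CPM in TMA-ARB replicates 6 to 10, against 0.197, 7.00, 1.96, 4.44 and 1.82 CPM in Control replicates 1 to 5. The groups overlapped, and both the lowest and the highest library were controls. Control replicate 1 held 3 counts, with a 95% exact Poisson interval of 0.0406 to 0.575 CPM, and Control replicate 2 held 125 counts, with an interval of 5.82 to 8.34 CPM. All intervals cover counting error only.

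The log2 fold change of Agt was -1.01 ± 0.70 (SE; 95% interval -2.51 to 0.49; edgeR adjusted p = 0.997). Without Control replicate 2 it was -0.45, and limma with sample weights gave -0.27. Adipocyte markers summed to 45.2 to 69.1 CPM in TMA-ARB libraries and 48.6 to 68.1 CPM in Control libraries, nearly all of it Fabp4, which endothelium also expresses, and Lipe. Of the other adipocyte genes listed, Adipoq, Cidec and Lep did not exceed 0.786 CPM in TMA-ARB libraries and had 0 counts in Control libraries. Plin1 was detected in every library, at 0.0656 to 1.74 CPM in TMA-ARB and 0.287 to 0.656 CPM in Control. Retn was at 0.202 to 1.62 CPM in TMA-ARB libraries and 0 to 1.17 CPM in Control libraries. Hepatocyte markers were close to absent: Alb did not exceed 0.13 CPM in any library and Ttr had 0 counts throughout. Fgb, another of them, reached 21.6 CPM in TMA-ARB replicate 6 and 1.37 CPM in Control replicate 3.

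Ace (chromosome 11, 105967945 to 105989964, plus strand) encodes angiotensin-converting enzyme, an ectoenzyme of endothelium that is also made by macrophages and some epithelia. It was lower in most TMA-ARB libraries, but it did not pass the test over all genes. Ace measured 32.5, 14.5, 11.7, 6.55 and 17.3 CPM in TMA-ARB replicates 6 to 10, against 39.7, 98.1, 17.9, 24.9 and 31.7 CPM in Control replicates 1 to 5. In 4 of 5 TMA-ARB libraries Ace lay below the lowest control; TMA-ARB replicate 6 lay within the control range, and Control replicate 2 was more than double any other library. A pattern with at least 4 TMA-ARB libraries below the lowest control was found in 449 of 14063 genes, or 3.19%.

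Mean Ace was 16.5 ± 9.76 CPM in TMA-ARB libraries and 42.4 ± 32.2 CPM in Control libraries (SD, n = 5 each). The log2 fold change was -1.36 ± 0.50 (SE; 95% interval -2.45 to -0.26), a ratio of 0.390 with an interval of 0.182 to 0.834. Its unadjusted p of 0.0195 was the 99th smallest of 14063, and edgeR gave an adjusted p of 0.997. Without Control replicate 2 the log2 fold change was -0.78.

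Endothelial markers were measured beside Ace, since fewer cells of a type and less RNA per cell cannot be told apart in bulk tumour RNA. The 10 endothelial markers, all of them detected in every library, summed to 377, 387, 267, 274 and 308 CPM in TMA-ARB replicates 6 to 10, against 356, 506, 420, 349 and 325 CPM in Control replicates 1 to 5. Their mean in TMA-ARB libraries was 0.824 of that in Control libraries, where the fitted ratio of Ace was 0.390. Control replicate 2 was highest for both Ace and the endothelial sum. Macrophage markers summed to 344 to 1138 CPM in TMA-ARB libraries and 656 to 1141 CPM in Control libraries. T and NK cell markers summed to 18.0, 9.32, 10.7, 13.2 and 15.2 CPM in TMA-ARB replicates 6 to 10, against 32.1, 24.6, 19.6, 20.3 and 17.6 CPM in Control replicates 1 to 5. As for Ace, 4 of 5 TMA-ARB libraries lay below the lowest control, and all 8 of these markers had a log2 fold change below 0. Across the 10 libraries the log2 sum of T and NK cell markers had r = 0.73 with Ace (permutation p = 0.0171, adjusted p = 0.269). Its rho with Ace was 0.84 (permutation p = 0.00376, adjusted p = 0.239). Without TMA-ARB replicate 7 and Control replicate 1, r was 0.82. With each group's mean removed, r over all 10 libraries was 0.50 (permutation p = 0.147). Pearson's r of Ace was 0.75 with the endothelial sum, 0.74 with the macrophage sum and 0.73 with the mast cell sum, each with an adjusted permutation p of 0.269. Without the libraries farthest from the median sum these were 0.46, 0.45 and 0.79, and with each group's mean removed they were 0.64, 0.70 and 0.70. The part of these cell types in the Ace values was not tested.

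Ace also moved with the mitochondrial share. TMA-ARB replicate 9 had the highest share and the lowest Ace, while Control replicate 2 had the lowest share and the highest Ace. Across the 10 libraries Pearson's r of log2 Ace with the log2 share was -0.83 (permutation p = 0.00272) and Spearman's rho was -0.84 (permutation p = 0.00380). Without TMA-ARB replicates 9 and 10, the libraries farthest from the median share, r was -0.73, and with each group's mean removed it was -0.80. It was 1 of 126 relations computed among the members, marker sums and the share, and after adjustment over them p was 0.269 for r and 0.239 for rho.

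Among libraries with a share under 5% the log2 fold change of Ace was -1.26 (edgeR adjusted p = 0.648). Among the others it was -0.85 (edgeR adjusted p = 0.682). Adding the log2 share to the fit as a covariate gave -0.69. The libraries under 5% included Control replicate 2, at 98.1 CPM of Ace. In that set Control replicates 1 and 5 were at 39.7 and 31.7 CPM. TMA-ARB replicates 6 and 7 were at 32.5 and 14.5 CPM. Under 5% the groups overlapped, with shares of 2.22% and 3.18% in TMA-ARB libraries, against 2.15%, 2.07% and 3.75% in Control libraries. At or above 5% they did not, with 10.5% to 24.97% in TMA-ARB libraries and 6.37% and 6.63% in Control libraries.

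**Figure D2:**
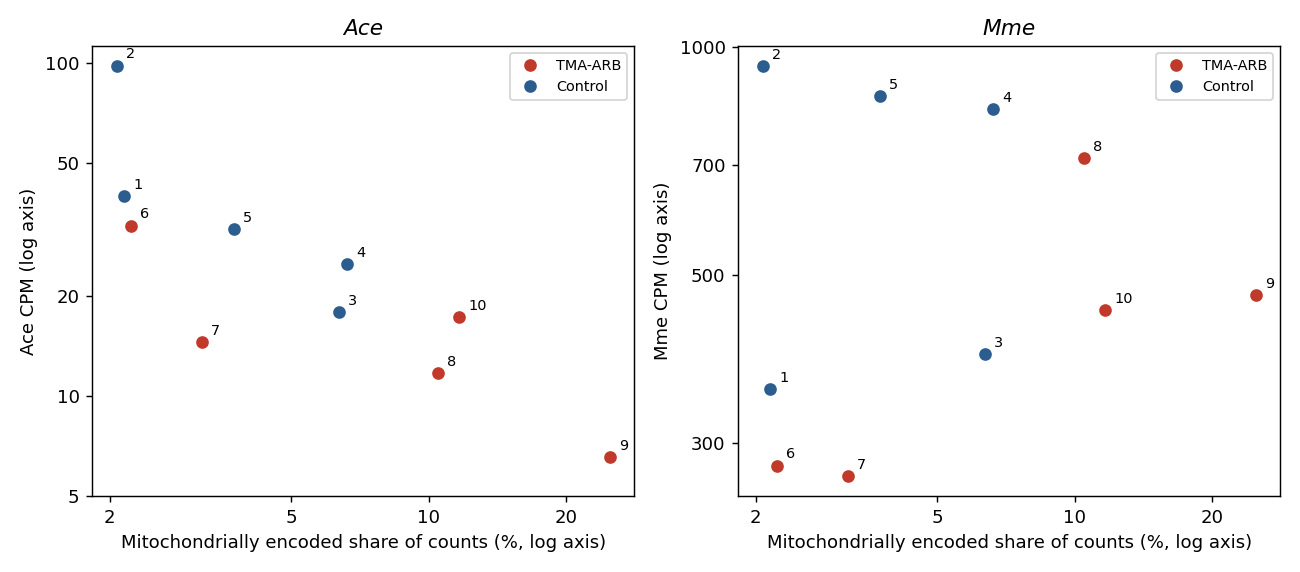
Ace (left) and Mme (right) in CPM on a log axis against the mitochondrially encoded share of counts in percent, also on a log axis; each point is a library with its replicate number, TMA-ARB in red and Control in blue. Ace runs downward with the share (Pearson's r = -0.83), and Mme shows no such course (r = 0.13).

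Agtr1a (chromosome 13, 30336441 to 30382867, plus strand) and Agtr1b (chromosome 3, 20314473 to 20367177, minus strand) encode the type 1 angiotensin II receptor, the target of valsartan. Both were too low for the expression filter. The receptors' coding sequences are alike enough that short reads could be divided between them, so they were compared in the GENCODE transcripts (release M21). Each coding sequence, stop codon included, has 1080 bases, and 981 of these, or 90.8%, are identical with no gap. The stretch of 120 bases that differs most lies at coding bases 948 to 1067, near the end of the reading frame. It is shown because reads from there can tell the receptors apart; the 22 differing bases are in capitals.
Agtr1a: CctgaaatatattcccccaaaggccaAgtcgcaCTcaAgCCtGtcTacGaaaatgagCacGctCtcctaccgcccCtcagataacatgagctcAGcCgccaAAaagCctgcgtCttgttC
Agtr1b: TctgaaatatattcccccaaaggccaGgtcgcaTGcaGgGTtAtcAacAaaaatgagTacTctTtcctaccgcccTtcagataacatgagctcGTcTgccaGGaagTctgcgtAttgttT
The longest identical stretch has 66 bases, at coding bases 75 to 140, and a short read inside it has no single origin.
Agtr1a and Agtr1b: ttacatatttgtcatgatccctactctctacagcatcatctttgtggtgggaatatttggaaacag
Of the 1031 windows of 50 bases along the Agtr1b coding sequence, 33, or 3.20%, also occur in that of Agtr1a. The sources used here do not give the read length or say how shared reads were counted.

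Agtr1a held 26, 7, 0, 0 and 8 counts in TMA-ARB replicates 6 to 10, against 1, 5, 22, 0 and 3 counts in Control replicates 1 to 5. The levels were 1.57, 0.459, 0, 0 and 0.540 CPM in those TMA-ARB libraries, against 0.0656, 0.280, 1.44, 0 and 0.182 CPM in the Control libraries. Each group thus had 1 library well above the rest, TMA-ARB replicate 6 and Control replicate 3, and the groups overlapped over their whole range. A count of 0 allows up to 3 counts as a one-sided limit, which is 0.221 CPM in TMA-ARB replicate 8, 0.307 in TMA-ARB replicate 9 and 0.215 in Control replicate 4.

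The difference in mean Agtr1a, TMA-ARB minus Control, was 0.121 CPM (two-sided exact permutation p = 0.667, where the smallest p that 5 libraries against 5 can give is 0.00794). Its direction depended on 1 library, being -0.143 CPM without TMA-ARB replicate 6 and 0.382 CPM without Control replicate 3. No difference in Agtr1a was detected, with an SD of 0.642 CPM in TMA-ARB libraries and 0.593 CPM in Control libraries (n = 5 each). The same 2 libraries stood high in mural cell markers, at 924 CPM for TMA-ARB replicate 6 and 954 CPM for Control replicate 3. The other TMA-ARB libraries lay at 379 to 538 CPM and the other Control libraries at 472 to 746 CPM. Most of these sums was Acta2, a gene that fibroblasts can also express, with 714 CPM in TMA-ARB replicate 6 and 675 CPM in Control replicate 3. Pdgfrb, another mural marker that fibroblasts share, was 105 CPM in TMA-ARB replicate 6, within the range of the other TMA-ARB libraries, and 183 CPM in Control replicate 3, the highest of all. Mural cells are a known site of the receptor; their part in the Agtr1a values was not tested.

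Agtr1b held 7 counts in TMA-ARB replicate 9 and 0 in the other 9 libraries. That library had no Agtr1a counts. Its Agtr1b level was 0.716 CPM, with a 95% exact Poisson interval of 0.288 to 1.48 CPM. In the other libraries the limit that a count of 0 allows ran from 0.181 to 0.221 CPM for TMA-ARB and from 0.168 to 0.215 CPM for Control.

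Agtrap (chromosome 4, 148077061 to 148088031, minus strand) encodes a membrane protein that binds the tail of the type 1 receptor and favours its removal from the cell surface. It was among the least variable members. Agtrap measured 22.7, 22.6, 26.5, 23.3 and 15.4 CPM in TMA-ARB replicates 6 to 10, against 30.7, 30.6, 23.9, 25.001 and 23.7 CPM in Control replicates 1 to 5. TMA-ARB replicate 8 was within the control range and the other 4 TMA-ARB libraries lay below it, with TMA-ARB replicate 10 lowest. The log2 fold change was -0.28 ± 0.19 (SE; 95% interval -0.68 to 0.12; edgeR adjusted p = 0.997), and -0.16 without TMA-ARB replicate 10.

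Atp6ap2 (chromosome X, 12587801 to 12617049, plus strand) ranged from 157 to 282 CPM in TMA-ARB libraries and from 187 to 286 CPM in Control libraries. Its log2 fold change was 0.03 ± 0.20 (SE; 95% interval -0.39 to 0.45), which bounds the ratio of the groups between 0.764 and 1.36 in this fit. The sign of so small a value changed with single libraries: leaving out TMA-ARB replicate 7 gave -0.055, and leaving out TMA-ARB replicate 6 gave 0.14.

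**Figure D3:**
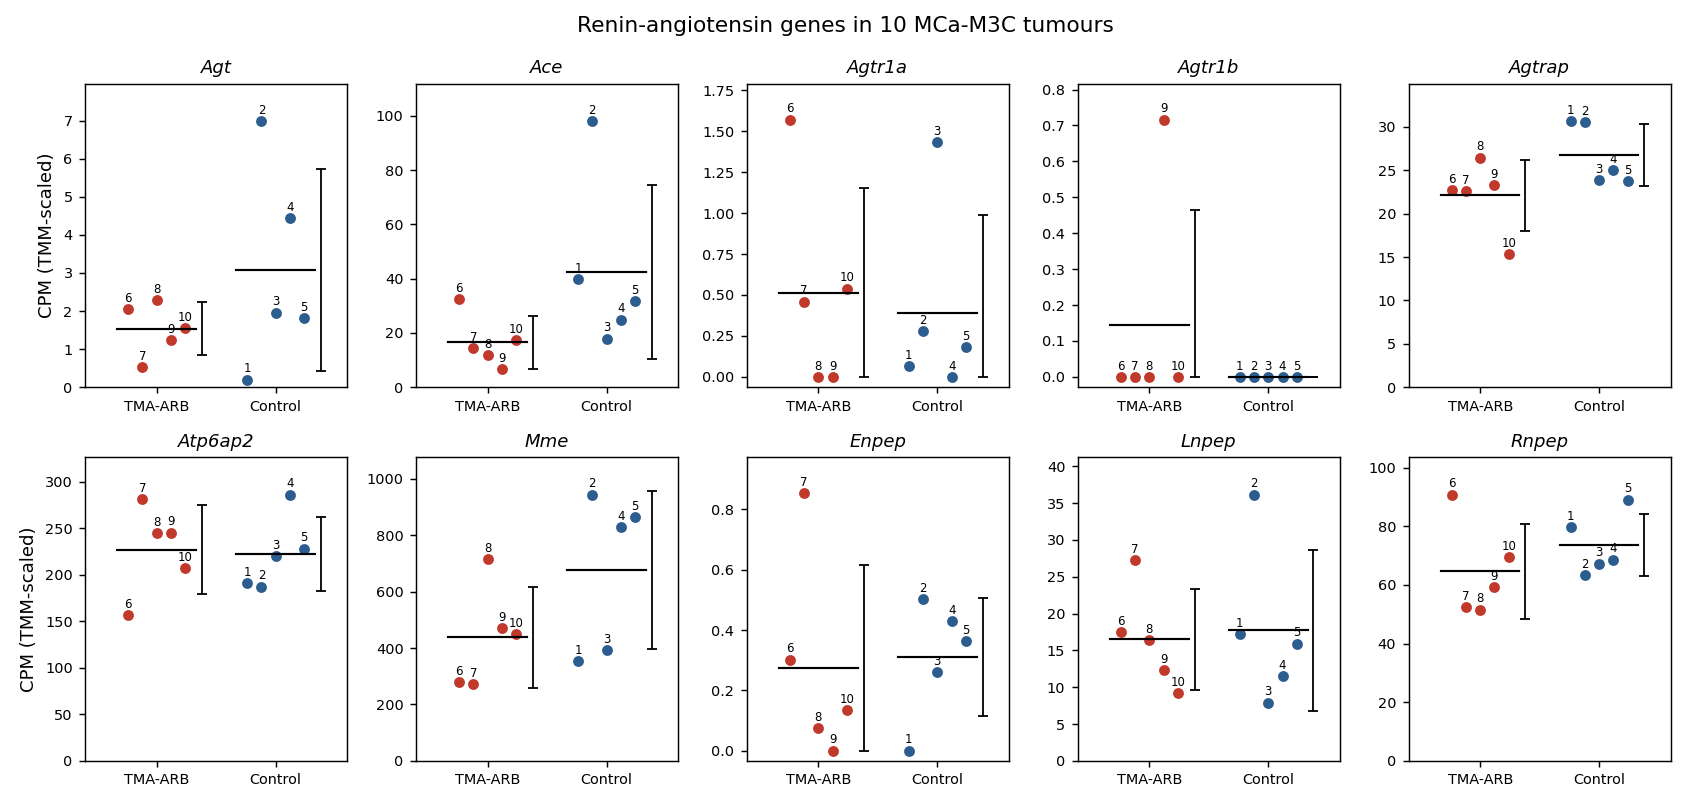
CPM (vertical axes, a scale of its own for each gene) of the 10 genes in each library, TMA-ARB in red at the left and Control in blue at the right, with replicate numbers. Lines are group means and bars the SD (n = 5 each), drawn no lower than 0; Control replicate 2 is highest for Agt, Ace, Mme and Lnpep.

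The enzymes that trim or destroy angiotensin peptides differed widely in level. Mme (chromosome 3, 63241537 to 63386030, plus strand) encodes neprilysin, a membrane protease that cuts angiotensin I, kinins and natriuretic peptides and that stromal, myoepithelial and neutrophil cells carry. Its level in CPM, not divided by length, exceeded that of 98.3% of tested genes. Mme measured 280, 272, 715, 471 and 450 CPM in TMA-ARB replicates 6 to 10, against 354, 944, 393, 829 and 863 CPM in Control replicates 1 to 5. The Control libraries fell apart into 3 high and 2 low ones, and only TMA-ARB replicates 6 and 7 lay below the lowest control.

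The log2 fold change of Mme was -0.63 ± 0.33 (SE; 95% interval -1.35 to 0.09), a ratio of 0.647 (edgeR adjusted p = 0.997). It was -1.38 among libraries with a mitochondrial share under 5% and -0.17 among the others. The first of these set TMA-ARB replicates 6 and 7 against Control replicates 1, 2 and 5. The difference between these values was not tested. With the log2 share as a covariate the log2 fold change of Mme was -0.91 (edgeR adjusted p = 0.886). Fibroblast markers summed to 5093 to 5835 CPM in TMA-ARB libraries and 4921 to 6209 CPM in Control libraries. Neutrophil markers summed to 75.8 to 251 CPM in TMA-ARB libraries and 104 to 348 CPM in Control libraries. Basal and myoepithelial markers rested almost wholly on Acta2, and their keratin Krt5 was at 0 counts in 2 TMA-ARB and 3 Control libraries. The part of these cells in the Mme values was not tested.

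Rnpep (chromosome 1, 135262712 to 135284084, minus strand) encodes aminopeptidase B, which removes basic residues from peptide ends. It ranged from 51.6 to 90.8 CPM in TMA-ARB libraries and from 63.2 to 89.0 CPM in Control libraries. TMA-ARB replicate 6 was the highest of all and TMA-ARB replicates 7, 8 and 9 lay below every control. The log2 fold change was -0.19 ± 0.19 (SE; 95% interval -0.59 to 0.22). Gm26642, an annotated gene on the opposite strand of this locus, stayed at or below 0.725 CPM in TMA-ARB libraries and 1.05 CPM in Control libraries.

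Lnpep (chromosome 17, 17521410 to 17625050, minus strand) encodes insulin-regulated aminopeptidase, which binds a short angiotensin fragment and degrades oxytocin and vasopressin. It measured 17.5, 27.3, 16.4, 12.3 and 9.24 CPM in TMA-ARB replicates 6 to 10, against 17.2, 36.2, 7.90, 11.5 and 15.9 CPM in Control replicates 1 to 5. The groups overlapped almost completely. The log2 fold change was -0.10 ± 0.39 (SE; 95% interval -0.93 to 0.73), and it was 0.33 without Control replicate 2. Lnpep had its largest Pearson's r, -0.80, with the adipocyte sum (permutation p = 0.00581, adjusted p = 0.269), with rho of -0.64 (permutation p = 0.0551) and r of -0.85 without TMA-ARB replicates 7 and 8. With the erythroid sum r was 0.73 (permutation p = 0.0168, adjusted p = 0.269), rho was 0.60 (permutation p = 0.0740), and r was 0.86 without Control replicate 2 and TMA-ARB replicate 6. Lnpep ran with the mitochondrial share at Pearson's r of -0.63 (permutation p = 0.0509, adjusted p = 0.467) and Spearman's rho of -0.73 (permutation p = 0.0201), and r was -0.61 without TMA-ARB replicates 9 and 10. The part of these sums and of the share in the Lnpep values was not tested.

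Enpep (chromosome 3, 129269175 to 129332720, minus strand) encodes aminopeptidase A, which turns angiotensin II into angiotensin III and is known as a marker of activated pericytes. It held 46 counts in all and did not pass the filter. The counts were 5, 13, 1, 0 and 2 in TMA-ARB replicates 6 to 10, against 0, 9, 4, 6 and 6 in Control replicates 1 to 5. TMA-ARB replicate 7 was highest, TMA-ARB replicate 9 and Control replicate 1 were at 0, and no direction could be read from these counts.

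Read as a set, 0 of the 7 tested members were called, as were 0 of 14063 genes. At an unadjusted p under 0.05 there was 1 member, Ace, and it was lower, against 3.25% of all genes in either direction and 1.66% lower. Of the 7, 6 had a log2 fold change below 0 against 47.2% of all genes, and the median was -0.28 against 0.02. Agtr1a, Agtr1b and Enpep have no part in these values. Because the members were chosen with earlier results of these data known, these shares are a description only. Control replicate 2 was the highest of all 10 libraries in 4 of the 7 tested members. Without it the median of the 7 was -0.24, and 6 of 7 were still below 0. Lnpep then turned to 0.33 and Atp6ap2 to -0.026.

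**Figure D4:**
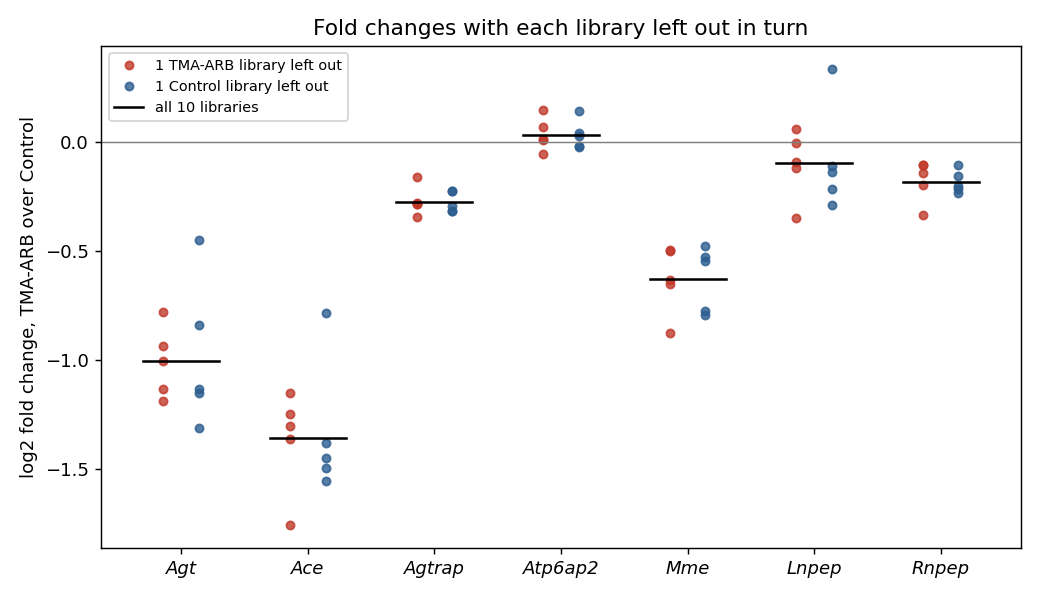
Log2 fold change, TMA-ARB over Control, of the 7 tested members with all 10 libraries (black line) and with each library left out in turn (red where a TMA-ARB library was left out, blue where a Control library was). Ace moves to -0.78 and Agt to -0.45 without Control replicate 2, and Atp6ap2 and Lnpep lie on both sides of 0.

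The rest of the pathway was read from 4 lists, chosen with earlier results of these data known. The first held 22 further genes, mainly of enzymes and receptors of angiotensin peptides, with Atp6ap1, a proton pump subunit, also among them. Of these, 21 were in the table and 16 were tested. None was called (0 higher, 0 lower), 13 of 16 had a log2 fold change below 0, and the median was -0.14. Some partners of the members were not seen. Agtr2, the type 2 receptor, and Mas1, a receptor for an opposing angiotensin peptide, had 0 counts in every library. Ren1, the renin gene, had 5 counts in Control replicate 3 and 0 elsewhere. A count of 0 allows up to 0.307 CPM in the shallowest library, TMA-ARB replicate 9.

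Other genes of this list were detected as RNA, and no peptide or enzyme activity was measured. Ctsg, which encodes cathepsin G, measured 2.36, 2.10, 7.52, 2.15 and 3.64 CPM in TMA-ARB replicates 6 to 10, against 23.6, 26.8, 1.24, 4.59 and 1.64 CPM in Control replicates 1 to 5. The high values were confined to Control replicates 1 and 2. The log2 fold change of Ctsg was -1.70 ± 0.83 (SE, edgeR adjusted p = 0.997), or -1.13 without Control replicate 2. In limma with sample weights it was -0.13 (adjusted p = 0.969). Cma1, which encodes mast cell chymase, measured 4.51 ± 5.18 CPM in TMA-ARB libraries and 6.18 ± 5.69 CPM in Control libraries (SD, n = 5 each). It was highest in TMA-ARB replicate 6 and Control replicate 1, as was the sum of the mast cell markers, of which Cma1 is one. Ctsd, the lysosomal protease cathepsin D, had a log2 fold change of -0.45 ± 0.26, Atp6ap1, another proton pump subunit, -0.23 ± 0.17, and Ece1, an endothelin-converting enzyme, -0.24 ± 0.22. The value of Ece1 was -0.076 without Control replicate 2 and -0.013 when the log2 mitochondrial share entered the fit.

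The second list held 25 genes through which the type 1 receptor signals or is withdrawn, all of them tested. Calls numbered 0 in either direction, 17 of 25 were below 0, and the median log2 fold change was -0.15. The smallest unadjusted p belonged to Gna12, a G protein subunit, at -0.34 ± 0.17, followed by Arrb1, the gene of an arrestin that uncouples the receptor, at -0.47 ± 0.24. Without Control replicate 2 Arrb1 was at -0.22. Grk5, a receptor kinase, was at -0.40 ± 0.21 and Jak2, a tyrosine kinase that the receptor can activate, at -0.31 ± 0.19.

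The third list held 20 genes known from cell culture and animal work to rise when the type 1 receptor is stimulated, of which 19 were tested. None was called (0 higher, 0 lower); 13 of 19 were below 0, with a median of -0.27, and 2 of 19 had an unadjusted p under 0.05. Over all genes 47.2% were below 0, 3.25% had such a p, and the median was 0.02. Because the list was chosen with earlier results known, this comparison is a description only. Fos, an immediate early gene, measured 14.99, 18.0, 30.8, 13.8 and 13.8 CPM in TMA-ARB replicates 6 to 10, against 62.8, 34.6, 32.9, 21.9 and 30.8 CPM in Control replicates 1 to 5. Its log2 fold change was -0.9999 ± 0.30 (SE; edgeR adjusted p = 0.997), with TMA-ARB replicate 8 inside the control range. Without Control replicate 1 the value of Fos was -0.72. Tgfb1, which encodes a matrix-inducing cytokine, averaged 55.8 ± 21.3 CPM in TMA-ARB libraries and 91.9 ± 29.4 CPM in Control libraries (SD, n = 5 each), a log2 fold change of -0.72 ± 0.28. The value of Tgfb1 was -0.52 without Control replicate 2 and -0.35 when the log2 mitochondrial share entered the fit. Spp1, the osteopontin gene, was at -0.33 ± 0.23, and Myc lay in the other direction at 0.42 ± 0.23.

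The fourth list held 10 genes of the kinin system, whose peptides angiotensin-converting enzyme and neprilysin also destroy. Of 7 tested members 0 were called, 6 were below 0, and the median was -0.15. Bdkrb1, the inducible kinin receptor, had a log2 fold change of -0.25 ± 0.29, and Bdkrb2, the constitutive one, -0.15 ± 1.12. Bdkrb2 ran from 0 to 5.51 CPM in TMA-ARB libraries and from 0 to 7.61 CPM in Control libraries. The aminopeptidase P genes Xpnpep1 and Xpnpep2 were at -0.21 ± 0.19 and -0.60 ± 0.67.

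**Figure D5:**
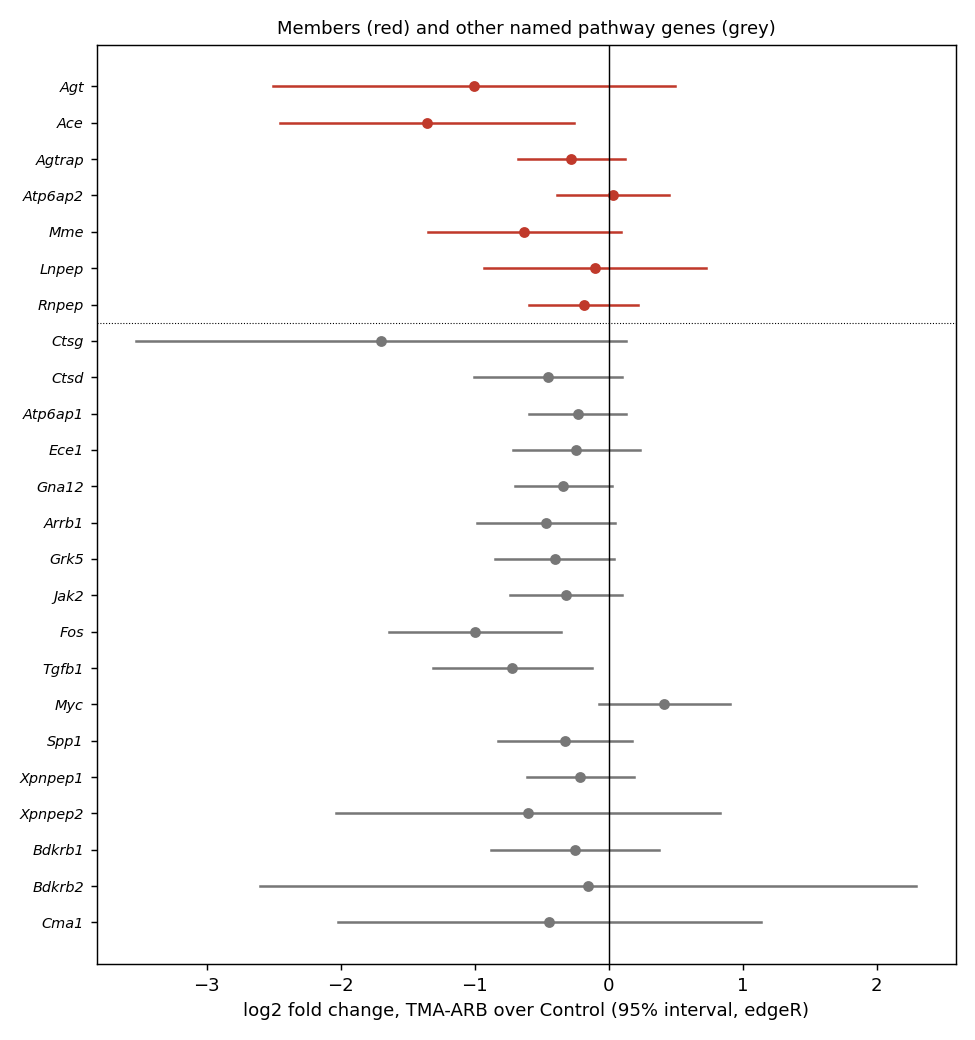
Log2 fold change, TMA-ARB over Control, with its 95% interval from edgeR for the 7 tested members (red) and the other named pathway genes that were tested (grey). Among the members the interval of Ace alone, -2.45 to -0.26 before adjustment, lies wholly below 0, and no gene was called after adjustment over all genes.

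How the members varied together was described over the 10 libraries. Among 126 relations between pairs of members and between members and marker sums or the mitochondrial share, 0 passed at an adjusted p under 0.05. The pair of members with the largest Pearson's r was Agt with Mme, at 0.70 (permutation p = 0.0224, adjusted p = 0.313) and Spearman's rho of 0.62 (permutation p = 0.0616). Without the libraries farthest from the median of Mme, Control replicates 2 and 5, r was 0.63. By rank the largest was Ace with Atp6ap2, at rho of -0.67 (permutation p = 0.0395, adjusted p = 0.465), where r was -0.55 (permutation p = 0.0957), or -0.74 without TMA-ARB replicate 6 and Control replicate 4. Agt also had r = 0.76 with the fibroblast marker sum (permutation p = 0.0104, adjusted p = 0.269), rho = 0.67 (permutation p = 0.0389), and r = 0.84 without Control replicate 1 and TMA-ARB replicate 8.

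Among 10866 genes with a mean of at least 5 CPM, the genes most like each member were found by Pearson's r of log2 CPM over 10 libraries with each group's mean removed, as a description with no test. Agt was most like Col6a3, a collagen VI chain gene, at r = 0.97, and then the unnamed gene 9430020K01Rik at 0.91 and Twsg1 at 0.89. Ace was most like Gm608, Numa1 and Ptpn11, at 0.95 each. Mme was most like Rin2 and Cdon at 0.97 each and Plk1s1 at 0.96. Lnpep was most like Wapal at 0.97, and Atp6ap2 most like C1galt1c1 at 0.97, Eapp at 0.95 and Coa6 at 0.94. The nearest genes to Agtrap were Alg1 at 0.90, Med17 and Hhat at 0.89 each, and to Rnpep they were Dusp7 and 6430548M08Rik at 0.93 each and Kat2a at 0.91. No member was among the nearest genes of another.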

How the data were processed

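Per the labels' protocols, poly-A RNA of 10 tumours was selected and prepared as strand-directional NEBNext libraries. The authors deposited estimated counts for 37882 genes, which were already whole numbers (0 values changed on rounding). Salmon and mm10 are named in the submitters' processing notes; the sources used here do not give the Salmon version, annotation, strand setting or rounding. Each column carries a sample name that the labels repeat, and the titles gave the groups.

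The main test was edgeR 4.0.16 (quasi-likelihood, robust) run in R 4.3.3 after the default expression filter, using TMM scaling and Benjamini-Hochberg adjustment over all genes tested, calling at 0.05. CPM used the TMM-scaled library size. The SE was the absolute log2 fold change over the square root of F. Alternatives used DESeq2 1.42.0 and limma 3.58.1. The edgeR step was tested on simulated data. Coordinates and lengths came from GENCODE mouse release M21 (GRCm38, the assembly of mm10). Correlations used 100000 permutations with scipy 1.17.1. In each of the 4 pathway lists the 4 genes of smallest unadjusted p were named, and Ren1, Agtr2, Mas1 and Cma1 in any case; with the 3 most similar genes per tested member, this was the naming rule; some genes it names are not reported here. Members and lists were chosen with earlier results of these data known. No replicate number occurs in both groups, which leaves nothing to pair.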

Additional observations from a re-analysis of the deposited data

Results flagged for a closer look

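Of 84 sets of 5 libraries checked for a value far from the others by Dixon's criterion, 16 held one. The criterion gives about 1 in 20 by chance where values are independent and normally spread. Some sets here share genes or hold 0 in all libraries but 1, so the 16 cannot be read against that rate. Among the members, Ace reached 98.1 CPM in Control replicate 2, with the next control at 39.7 CPM. Agtr1a reached 1.44 CPM in Control replicate 3, with the next control at 0.280 CPM, and Agtr1b 0.716 CPM in TMA-ARB replicate 9, with the other TMA-ARB libraries at 0.

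Among other pathway genes, TMA-ARB replicate 8 was high for Ctsg at 7.52 CPM (next 3.64) and for Fos at 30.8 CPM (next 18.0). TMA-ARB replicate 6 was high for Ece1 at 58.0 CPM (next 38.6) and low for Spp1 at 1048 CPM (next 1864). TMA-ARB replicate 7 was low for Myc at 68.7 CPM (next 104). Control replicate 2 was high for Arrb1 at 69.7 CPM (next 38.7) and Control replicate 1 for Cma1 at 16.3 CPM (next 4.80). Control replicate 3 was high for Xpnpep2 at 2.41 CPM (next 1.29) and for Ren1 at 0.326 CPM (others 0).

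Among marker sums, TMA-ARB replicate 6 was high for skeletal muscle at 278 CPM (next 111) and for hepatocytes at 21.8 CPM (next 0.202), nearly all of it Fgb. Control replicate 3 was high for hepatocyte markers at 1.501 CPM (next 0.0606), and Control replicate 2 for erythroid markers at 1049 CPM (next 227).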

How the results depend on the processing

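No member was called under any setting tried (0 in each), and Ace, Agtrap, Mme and Rnpep were negative in all of them, as was Agt wherever it was fitted (a minimum mean of 5 CPM left it out). DESeq2 called 1 gene higher and 1 lower, neither a member, and libraries at or above a 5% mitochondrial share alone gave 1 higher and 3 lower. Atp6ap2 turned to -0.027 in limma with sample weights, -0.077 when the log2 mitochondrial share entered as a covariate and -0.13 in libraries at or above 5%. Lnpep turned to 0.39 with that covariate and 0.37 in those libraries. Among pathway genes, Cma1 turned to 0.035 with the covariate and 0.26 under 5%. Bdkrb2 turned to 1.54 with it, 0.12 under 5% and 1.34 at or above 5%, and Ctsg to 0.62 at or above 5%. The cause was not tested.

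With 1 library left out, the log2 fold change ran from -1.76 to -0.78 for Ace, -1.31 to -0.45 for Agt, -0.34 to -0.16 for Agtrap, -0.055 to 0.14 for Atp6ap2, -0.88 to -0.48 for Mme, -0.35 to 0.33 for Lnpep and -0.33 to -0.11 for Rnpep. Cma1 ran from -1.41 to 0.31 and Bdkrb2 from -0.61 to 0.61. The Agtr1a difference ran from -0.143 to 0.382 CPM. No paired analysis was possible because the groups share no replicate number. Among pathway genes the value nearest 0 was -0.15 for Atp6ap1, -0.18 for Spp1, -0.10 for Xpnpep1, -0.30 for Xpnpep2 and -0.10 for Bdkrb1. The number of genes at an unadjusted p under 0.05 ran from 224 to 1219, and limma with sample weights gave 1389.

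At this depth 3 members did not pass the filter. Without it edgeR gave log2 fold changes of 0.43 for Agtr1a (adjusted p = 0.973), -0.14 for Enpep (adjusted p = 0.995) and 4.06 for Agtr1b (unadjusted p = 0.0326, adjusted p = 0.730). DESeq2 gave 0.42, -0.15 and 3.60 for the same genes, each with an adjusted p of 0.995. The Agtr1b values rest on 7 counts in 1 TMA-ARB library against 0 in Control, so their size cannot be read as a measured ratio.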
